A study of Homo sapiens with 2 samples.

Results

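RNA polymerases I, II and III were examined through the RNA of their subunit genes. Members were all symbols that begin with POLR1, POLR2 or POLR3 followed by letters and at most 1 digit, together with CRCP and CD3EAP, which are older names of a Pol III and a Pol I subunit. This gave 42 of the 52402 gene symbols in the tables. Of these, 9 carry pseudogene names, and RefSeq also lists POLR2J4 as a transcribed pseudogene. RNA was sequenced from DLD1 cells, a human colorectal adenocarcinoma line grown in serum-containing medium. The library labelled HERV-R knockout was set against the control library, labelled wild type, and the study's title concerns tumorigenic properties of colorectal cancer cells. HERV-R is a human endogenous retrovirus. Both libraries carry the same protocol text, in which Cas9 and guide RNA vectors were delivered by lipofection and colonies were then selected with hygromycin. Whether each library came from 1 clone, and which vectors the control received, is not known from the labels. There was 1 library per group, so no spread between replicates could be measured and no test of the knockout was possible. Intervals below are exact 95% counting intervals (Clopper-Pearson) and cover counting error only.

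The nucleus divides transcription among these enzymes. Pol I makes the large ribosomal RNA precursor, Pol II makes messenger RNA and many non-coding RNAs, and Pol III makes transfer RNA, the smallest ribosomal RNA and other short RNAs. Each has a catalytic core of its own, an assembly platform, a stalk and factors for initiation and RNA cleavage. A set of small subunits is common to all of them, and a further pair is shared by Pol I and Pol III.

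The knockout-labelled library held 16406308 counts and the control library 21881122. ERV3-1, taken as the targeted gene because it encodes the HERV-R envelope protein, had 125 counts (7.62 CPM) in the knockout-labelled library and 127 (5.80 CPM) in the control, where CPM is counts per 1000000 of the library total. It was therefore not lower under the knockout label, and a gene-wide count does not see a small edit. Of 11 markers of colorectal epithelium, 9 reached a mean of 1 CPM, with KRT18 the highest (1741 CPM in the knockout-labelled library, 4967 CPM in the control) and KRT20 at 0 counts in both. The 11 epithelial markers summed to 5710 CPM in the knockout-labelled library and 11058 CPM in the control. None of 5 fibroblast, 5 blood and 3 endothelial markers reached a mean of 1 CPM. Their summed levels were 0.366, 0.366 and 0.427 CPM in the knockout-labelled library and 1.10, 0.183 and 0.640 CPM in the control. In bulk RNA, fewer cells of a kind and less RNA per cell cannot be told apart.

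Scaled by library totals, most measured subunits, like most compared genes, had more RNA in the knockout-labelled library. Of the 42 members, 32 had a mean of at least 1 CPM, and 25 of these had a log2 ratio above 0 (knockout-labelled library over control, with 1 CPM added to each). Of all 12644 compared genes, 7340 had a log2 ratio above 0. By the 2-fold size rule on that log2 ratio, 8 were higher, or 25% of the measured members, where 6.78% of all 12644 compared genes were higher. Among them were POLR1A and CD3EAP of Pol I, POLR3B, POLR3C, POLR3K and CRCP of Pol III, and POLR2L, which all 3 enzymes share. The only member that was at least 2-fold lower was POLR2J2, a copy of a Pol II subunit gene, so that 3.13% of the measured members were lower, against 5.69% of all compared genes. None of the 6 measured subunits proper to Pol II passed in either direction, which is near those shares of all compared genes.

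The median log2 ratio was 0.45 for the 32 measured members and 0.12 for all compared genes, and 23 members lay above the median of all compared genes. Without a pseudocount, the choice of scaling shifts each log2 ratio by -0.12 (TMM), -0.14 (upper quartile) or -0.16 (median of gene ratios), and with 1 CPM added genes of low level shift by less. With these scalings 5, 4 and 4 members were at least 2-fold higher and 1 was lower, while the numbers over all compared genes went to 601 higher and 879 lower, 574 and 917, and 544 and 945, against 857 and 719 by library totals. POLR1A, CD3EAP, POLR3B and POLR3C stayed past the rule under each of these scalings, and POLR2L, POLR3K and CRCP under none of them. With 5 CPM added in place of 1, CD3EAP (0.93), CRCP (0.99) and POLR3K (0.97) were under the log2 limit of 1.

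**Figure D1:**
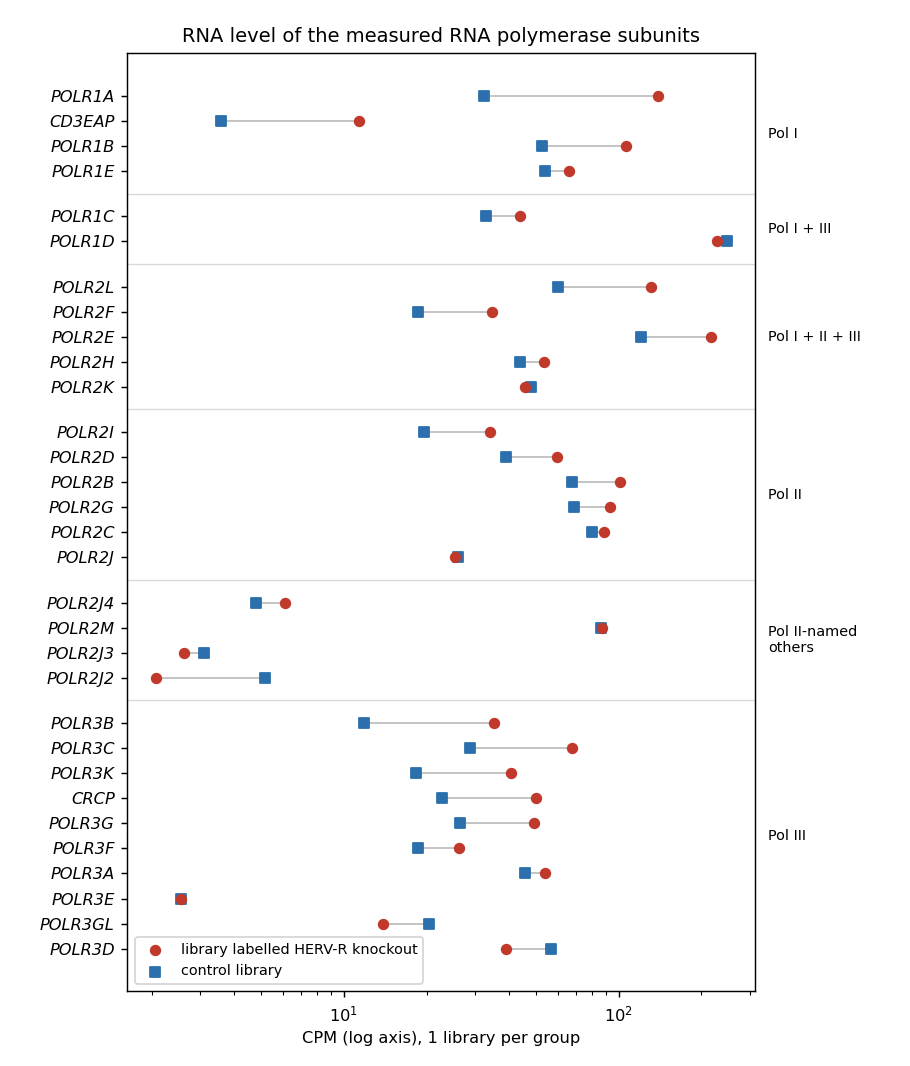
Level of 31 measured subunits in CPM (log axis), with a red circle for the knockout-labelled library and a blue square for the control, 1 library each, grouped by the enzyme that holds the subunit. The widest gaps with the red point to the right are those of POLR1A, CD3EAP and POLR3B, while POLR3D, POLR3GL and POLR2J2 have the red point to the left.

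Promoter sequences are shown for 4 members: POLR1A and POLR3B, the highest by fold of the Pol I and Pol III catalytic subunits, and POLR3C and POLR3GL, which lie 0.122 Mb apart on chromosome 1 and encode parts of the same Pol III subcomplex but differed in opposite directions. The windows run from 250 bases before to 50 bases after the RefSeq start (GRCh38.p14), 5′ to 3′ along the gene. POLR1A lies at chr2:86105837-86106136 (minus strand), POLR3B at chr12:106357498-106357797 (plus), POLR3C at chr1:145823950-145824249 (plus) and POLR3GL at chr1:145964440-145964739 (plus). Capitals mark matches on either strand to any of 4 motifs. The E-box was searched as CACGTG. The Sp1-type box known as the GC box was searched as GGGCGG. The core of ETS factor sites was searched as CCGGAAG. The TATA box was searched as TATAAA.
POLR1A: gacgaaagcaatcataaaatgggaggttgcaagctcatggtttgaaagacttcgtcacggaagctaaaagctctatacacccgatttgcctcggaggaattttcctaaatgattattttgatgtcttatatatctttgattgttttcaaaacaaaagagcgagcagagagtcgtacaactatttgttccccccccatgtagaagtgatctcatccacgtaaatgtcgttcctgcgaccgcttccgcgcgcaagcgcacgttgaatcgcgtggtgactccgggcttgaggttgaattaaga
POLR3B: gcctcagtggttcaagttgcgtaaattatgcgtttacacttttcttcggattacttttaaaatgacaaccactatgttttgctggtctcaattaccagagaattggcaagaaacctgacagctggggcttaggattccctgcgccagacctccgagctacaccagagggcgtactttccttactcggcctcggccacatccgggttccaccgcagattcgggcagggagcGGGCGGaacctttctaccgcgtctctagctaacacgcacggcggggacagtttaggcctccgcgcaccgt
POLR3C: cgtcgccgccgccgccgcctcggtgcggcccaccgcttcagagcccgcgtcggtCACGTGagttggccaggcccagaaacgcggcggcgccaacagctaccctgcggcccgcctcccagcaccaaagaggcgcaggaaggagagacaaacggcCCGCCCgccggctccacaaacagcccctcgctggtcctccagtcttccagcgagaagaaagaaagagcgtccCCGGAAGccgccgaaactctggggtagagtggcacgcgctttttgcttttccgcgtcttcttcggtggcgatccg
POLR3GL: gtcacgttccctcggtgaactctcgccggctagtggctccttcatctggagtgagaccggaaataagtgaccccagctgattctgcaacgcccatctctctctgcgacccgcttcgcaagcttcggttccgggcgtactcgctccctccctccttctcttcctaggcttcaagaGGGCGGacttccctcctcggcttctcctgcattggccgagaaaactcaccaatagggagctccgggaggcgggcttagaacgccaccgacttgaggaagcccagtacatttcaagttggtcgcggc
The POLR1A window held none of these letters and had a GC content of 44.7%, the POLR3B window had 1 GC box match and 54.0% GC, and the POLR3GL window 1 GC box match and 59.3% GC. The POLR3C window had 1 match each to the E-box, the GC box and the ETS core, with 67.7% GC. RefSeq windows were found for 22 of the 42 members, 21 of them measured. Among these 21, the ETS core was present in 9 (42.9%), against 17.1% of 13705 windows of compared genes and 10.3% of all 35116 windows. The E-box was present in 4 (19.0%), against 9.21% and 7.26%, and the GC box in 15 (71.4%), against 66.3% and 44.95%. The TATA box was present in 1 (4.76%), against 5.88% and 11.5%. The units differ, since each member has 1 window here, the first listed. The windows of compared genes and of all genes include several for some genes. Of the 6 windows of members at least 2-fold higher, 1 held the ETS core, and of the 14 windows of members between the limits 7 did. The matches describe the letters in these windows and do not show binding.

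Within Pol I and within Pol III, the catalytic subunits differed unequally. The largest subunit of Pol I, POLR1A (chr2:86020216-86106155, minus strand, GENCODE 29 on GRCh38), had 2278 counts (139 CPM) in the knockout-labelled library and 710 (32.4 CPM) in the control, a ratio of 4.28 (3.93 to 4.66). Its log2 ratio of 2.06 lay above 99.8% of all compared genes and was the highest among the members. POLR1B, the second catalytic subunit of Pol I, had 1740 counts (106 CPM) in the knockout-labelled library and 1151 (52.6 CPM) in the control. Its ratio was 2.02 (1.87 to 2.17) and its log2 ratio, 0.998 with 1 CPM added, fell just short of the rule.

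POLR3B, the second catalytic subunit of Pol III, had 577 counts (35.2 CPM) in the knockout-labelled library and 260 (11.9 CPM) in the control, a ratio of 2.96 (2.55 to 3.44). Its partner POLR3A, the largest Pol III subunit, had 54.0 CPM in the knockout-labelled library and 45.7 CPM in the control, a ratio of 1.18 (1.08 to 1.29). POLR2B, the second catalytic subunit of Pol II, had 101 CPM in the knockout-labelled library and 67.5 CPM in the control, a ratio of 1.49 (1.39 to 1.60). In Pol I the largest subunit therefore moved more than its partner, and in Pol III less. The ratio of POLR1A over POLR1B was 2.12 times as high in the knockout-labelled library as in the control (1.89 to 2.38), and that of POLR3B over POLR3A 2.51 times (2.10 to 2.99). These 2 values do not depend on the scaling.

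Per kilobase of coding length, the level of POLR1A was 26.9 CPM and that of POLR1B 30.1 CPM in the knockout-labelled library, against 6.29 and 14.9 CPM in the control. POLR3A had 12.95 CPM and POLR3B 10.3 CPM per kilobase in the knockout-labelled library, against 10.97 and 3.50 CPM in the control. On this scale both pairs stood closer together in the knockout-labelled library. Per kilobase of the whole transcript, POLR1A had 10.9 and POLR1B 21.0 CPM in the knockout-labelled library, against 2.55 and 10.4 CPM in the control, and POLR3A and POLR3B 8.13 and 8.23 CPM, against 6.89 and 2.78 CPM.

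POLR2A, which encodes the largest catalytic subunit of Pol II, could not be read from these tables. It had 0 counts in the knockout-labelled library, which allows up to 0.183 CPM, and 2 counts (0.0914 CPM) in the control. The symbol stands on 2 rows, with 1 control count on each. Of 623 protein-coding symbols on 2 rows, 147 (23.6%) reached a mean of 1 CPM, against 61.4% of the 17426 on 1 row. The part of the repeated rows in the low value of POLR2A was not tested, and POLR2A entered no median or count of calls. ZNRD1, the Pol I subunit that aids RNA cleavage and proofreading and is outside the symbol rule, stands on 8 rows and had 0 counts on all of them in both libraries.

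**Figure D2:**
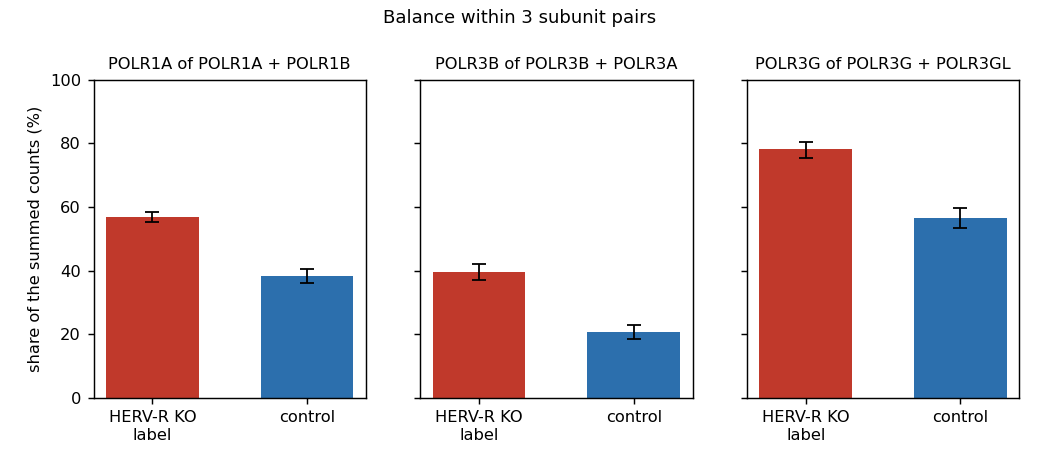
Share of the summed counts of a subunit pair that fell on the first-named gene, in percent, in the knockout-labelled library (red, left) and the control (blue, right), with exact 95% counting intervals, 1 library each. POLR1A made up 56.7% and 38.2% of its pair with POLR1B, POLR3B 39.4% and 20.6% of its pair with POLR3A, and POLR3G 78.0% and 56.6% of its pair with POLR3GL.

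The stalk subunits described here had ratios above 1 in all 3 enzymes. The stalk extends from the core and contacts initiation factors and the emerging RNA. CRCP, a Pol III stalk subunit, had 820 counts (49.98 CPM) in the knockout-labelled library and 497 (22.7 CPM) in the control, a ratio of 2.20 (1.97 to 2.46). CRCP lies on chromosome 7 (chr7:66114604-66154568, plus strand), 1.11 Mb from ERV3-1, and is the member nearest to the labelled target. TWISTNB, the Pol I stalk subunit that the symbol rule leaves out, had 87.5 CPM in the knockout-labelled library and 43.1 CPM in the control, a ratio of 2.03 (1.87 to 2.21), and its log2 ratio of 1.01 dropped under the rule with each other scaling. The Pol II stalk subunits POLR2D and POLR2G had 59.7 and 93.4 CPM in the knockout-labelled library, against 38.8 and 68.9 CPM in the control, with ratios of 1.54 (1.40 to 1.69) and 1.35 (1.26 to 1.46). These Pol II intervals do not reach that of CRCP.

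Subunits that assist RNA cleavage at the active site also had ratios above 1. POLR3K of Pol III had 668 counts (40.7 CPM) in the knockout-labelled library and 402 (18.4 CPM) in the control, a ratio of 2.22 (1.96 to 2.51). Of its exon bases, 8.10% overlap SNRNP25 on the opposite strand, which had 747 counts in the knockout-labelled library and 274 in the control. POLR2I, the counterpart of POLR3K in Pol II, had 556 counts (33.9 CPM) in the knockout-labelled library and 429 (19.6 CPM) in the control, a ratio of 1.73 (1.52 to 1.97). Of the exon bases of POLR2I, 61.9% overlap AD001527.2, a gene with no row of its own here, and 32.9% overlap TBCB. Both lie on the opposite strand, and whether counting used the strand is not known from the labels. TBCB had 1436 counts in the knockout-labelled library and 1411 in the control. The part of these overlaps in the values of POLR3K and POLR2I was not tested.

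Pol III subunits that act in initiation included ratios on both sides of 1. POLR3C, POLR3F and POLR3G form a subcomplex that helps Pol III open the promoter, and POLR3GL is a paralog that can take the place of POLR3G. POLR3C had 1106 counts (67.4 CPM) in the knockout-labelled library and 632 (28.9 CPM) in the control, a ratio of 2.33 (2.11 to 2.58). POLR3G, the form known for high levels in stem cells and tumour lines, had 807 counts (49.2 CPM) in the knockout-labelled library and 580 (26.5 CPM) in the control, a ratio of 1.86 (1.67 to 2.07). POLR3GL, the form known from most differentiated tissues, had 227 counts (13.8 CPM) in the knockout-labelled library and 445 (20.3 CPM) in the control, a ratio of 0.680 (0.577 to 0.800). The paralogs thus went in opposite directions, and did so under each scaling tried, although neither passed the 2-fold rule. POLR3G took 78.0% (75.4 to 80.5) of the counts of the pair in the knockout-labelled library and 56.6% (53.5 to 59.6) in the control, and the ratio of POLR3G over POLR3GL was 2.73 times as high (2.24 to 3.32). Of the exon bases of POLR3GL, 21.2% overlap AC243547.3 on the same strand, a gene with no row of its own here. Of those of POLR3G, 6.47% overlap MBLAC2 on the opposite strand. MBLAC2 had 393 counts in the knockout-labelled library and 243 in the control. The part of these overlaps in the values of the pair was not tested. POLR3F, the remaining member of the subcomplex, had a ratio of 1.41 (1.23 to 1.62), from 26.3 CPM in the knockout-labelled library and 18.6 CPM in the control.

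POLR3D and POLR3E form another Pol III subcomplex, which resembles the Pol II factor TFIIF. POLR3D had 641 counts (39.1 CPM) in the knockout-labelled library and 1246 (56.9 CPM) in the control, a ratio of 0.686 (0.623 to 0.755), close to that of POLR3GL. The log2 ratios of POLR3D and POLR3GL were -0.53 and -0.52 with 1 CPM added, and -0.54 and -0.55 with 0.1 CPM added. POLR3E had 42 counts in the knockout-labelled library and 56 in the control, or 2.56 CPM in each. This symbol stands on 2 rows, as POLR2A does, so its low level has the same limit.

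Pol I has a TFIIF-like pair of its own, POLR1E and CD3EAP. CD3EAP had 186 counts (11.3 CPM) in the knockout-labelled library and 78 (3.56 CPM) in the control, a ratio of 3.18 (2.43 to 4.20). POLR1E had 1083 counts (66.0 CPM) in the knockout-labelled library and 1182 (54.0 CPM) in the control, a ratio of 1.22 (1.12 to 1.33). The 2 partners therefore differed in size of change, with intervals that do not meet. For CD3EAP, 43.5% of exon bases overlap ERCC1 on the opposite strand, which had 829 counts in the knockout-labelled library and 1049 in the control. The part of this overlap in the value of CD3EAP was not tested.

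The assembly platform, on which the large subunits are built, had ratios between 0.922 and 1.33 in its 2 forms. POLR1C, 1 of the pair that Pol I and Pol III share, had 720 counts in each library, which is 43.9 CPM in the knockout-labelled library and 32.9 CPM in the control, a ratio of 1.33 (1.20 to 1.48). Its partner POLR1D had 3743 counts (228 CPM) in the knockout-labelled library and 5412 (247 CPM) in the control, a ratio of 0.922 (0.885 to 0.962). POLR1D was the member with the most counts in both libraries. In Pol II, POLR2C had 88.3 CPM in the knockout-labelled library and 80.0 CPM in the control, a ratio of 1.10 (1.03 to 1.18) that turned below 1 under upper-quartile and median-of-ratios scaling. POLR2J had 25.4 CPM in the knockout-labelled library and 25.96 CPM in the control, a ratio of 0.979 (0.861 to 1.11).

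The 5 subunits common to all enzymes did not move as a block. POLR2L, a small zinc-binding subunit, had 2156 counts (131 CPM) in the knockout-labelled library and 1318 (60.2 CPM) in the control, a ratio of 2.18 (2.04 to 2.34). POLR2E had 217 CPM in the knockout-labelled library and 121 CPM in the control, a ratio of 1.80 (1.71 to 1.89), and POLR2F had 34.5 CPM in the knockout-labelled library and 18.6 CPM in the control, a ratio of 1.86 (1.63 to 2.12). POLR2H had 53.5 CPM in the knockout-labelled library and 43.6 CPM in the control, a ratio of 1.23 (1.12 to 1.35). POLR2K, the other small zinc-binding subunit, had 45.7 CPM in the knockout-labelled library and 47.9 CPM in the control, a ratio of 0.952 (0.866 to 1.05). Of the exon bases of POLR2L, 22.5% overlap CD151 on the opposite strand, which had 5310 counts in the knockout-labelled library and 7424 in the control. Per kilobase of coding length, the levels of these subunits ran from 72.8 CPM (POLR2F) to 654 CPM (POLR2L) in the knockout-labelled library and from 39.1 CPM (POLR2F) to 299.7 CPM (POLR2L) in the control.

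**Figure D3:**
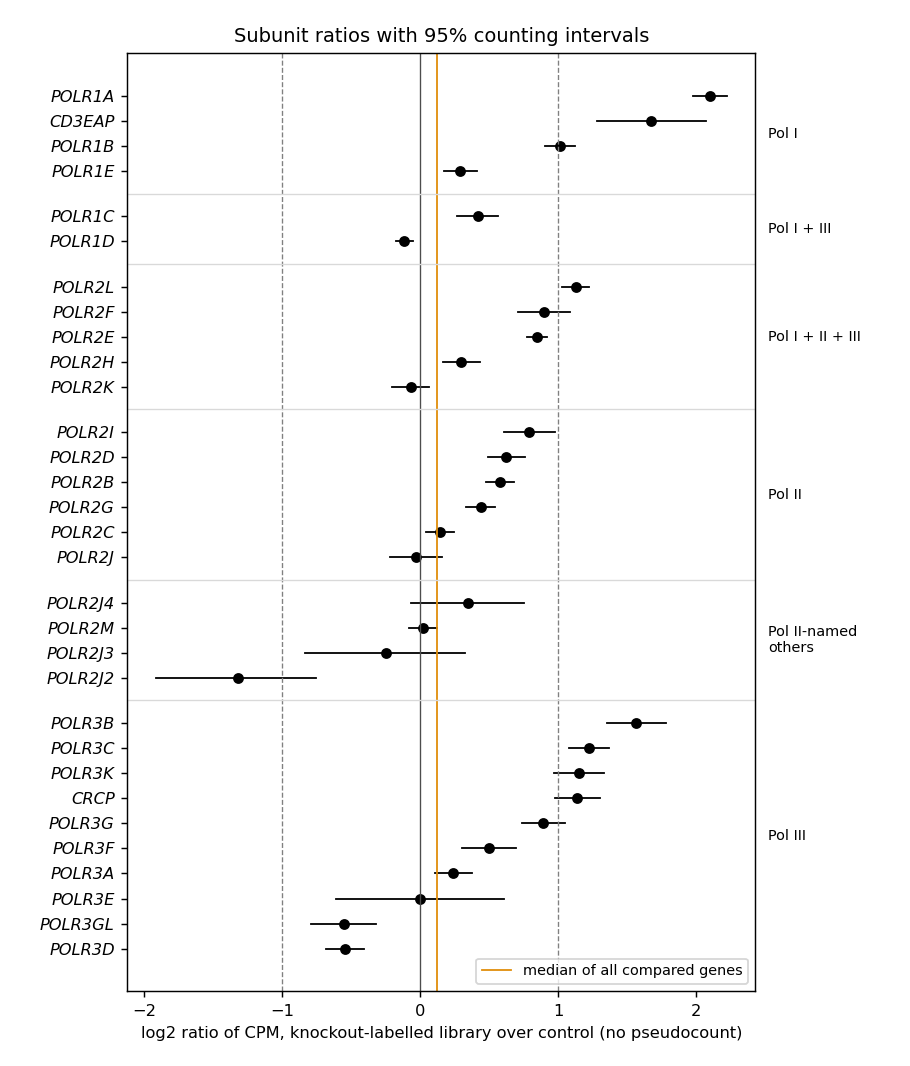
Ratio of CPM in the knockout-labelled library over the control for 31 measured members, on a log2 scale without pseudocount. Points are ratios, bars are exact 95% counting intervals, dashed lines mark 2-fold and the orange line marks the median of all compared genes (0.12, with 1 CPM added). POLR1A, at a ratio of 4.28, stands farthest to the right and POLR2J2, at 0.401, farthest to the left.

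Taken by enzyme, the members proper to Pol I had a median log2 ratio of 1.22 (4 genes), those proper to Pol III 0.87 (11 genes) and those proper to Pol II 0.50 (6 genes). The subunits common to all enzymes had a median of 0.84 (5 genes), and POLR1C and POLR1D 0.14. At least 2-fold higher were 2 of 4 members proper to Pol I (50%) and 5 of 11 of Pol III (45.5%). Of the measured Pol II members 0 of 6 were, which is near the 6.78% of all compared genes. CRCP and POLR3K, counted for Pol III here, dropped under the rule with each other scaling. The log2 ratios of the Pol II members spanned 0.79, against 1.78 for Pol I and 2.02 for Pol III. A span depends on the number of genes, and POLR2A is missing from Pol II here. With the shared subunits added, the spans were 2.18 for Pol I (11 genes), 1.18 for Pol II (11) and 2.02 for Pol III (18). The medians were then 0.84, 0.57 and 0.66. With TWISTNB counted among the members proper to Pol I, these had a median of 1.01. No test of a difference between the enzymes was made, as genes are not replicates.

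The remaining members are named after Pol II but are not part of its core. POLR2M, which binds Pol II and hinders its initiation, had 87.3 CPM in the knockout-labelled library and 86.0 CPM in the control, a ratio of 1.01 (0.947 to 1.09) that turned below 1 with each other scaling. Of its exon bases, 21.1% overlap GCOM1 on the same strand, which had 98 counts in the knockout-labelled library and 357 in the control. POLR2J2 and POLR2J3 are copies of POLR2J that lie near it on chromosome 7, so reads can be lost or split among them. POLR2J2 had 34 counts (2.07 CPM) in the knockout-labelled library and 113 (5.16 CPM) in the control, a ratio of 0.401 (0.265 to 0.593). Of its exon bases, 20.8% overlap AC105052.3 on the same strand, a gene with no row of its own here. The part of this overlap in the value of POLR2J2 was not tested. POLR2J3 had 43 counts in the knockout-labelled library and 68 in the control (0.843, 0.562 to 1.25), and POLR2J4, the transcribed pseudogene, had 100 in the knockout-labelled library and 105 in the control (1.27, 0.956 to 1.69). The log2 ratio of POLR2J2 was -1.005 with 1 CPM added, at the edge of the rule, and -0.52 with 5 CPM added. Of the 9 pseudogene-named symbols, POLR2KP1 had 2 counts in the knockout-labelled library, and 0 in the control. POLR2CP1, POLR2KP2, POLR2LP1, POLR3DP1, POLR3GP1, POLR3GP2, POLR3KP1 and POLR3KP2 had 0 counts in both.

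The factors that load and assist the polymerases are given by list, beside the 6.78% higher and 5.69% lower of all compared genes. Of 10 measured Pol I initiation and termination factors, 1 was at least 2-fold higher (10%) and 2 were lower (20%), with a median log2 ratio of 0.19. UBTF, which bends and opens ribosomal DNA for Pol I, had 192 CPM in the knockout-labelled library and 79.6 CPM in the control (ratio 2.41, 2.27 to 2.55). TAF1D, a subunit of the Pol I selectivity factor, had 80.1 CPM in the knockout-labelled library and 166 CPM in the control (0.482, 0.453 to 0.514). PTRF, named as a Pol I transcript release factor but best known as a coat protein of caveolae, had 19.4 CPM in the knockout-labelled library and 62.4 CPM in the control (0.311, 0.275 to 0.352).

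Of 20 measured Pol III initiation factors and regulators, 2 were at least 2-fold higher (10%, against 6.78% of all compared genes) and 0 lower (against 5.69%), with a median log2 ratio of 0.29. BRF1, which recruits Pol III to transfer RNA genes, had 42.3 CPM in the knockout-labelled library and 19.3 CPM in the control (2.19, 1.94 to 2.48). SNAPC4, the DNA-binding subunit of the factor for small nuclear RNA genes, had 19.4 CPM in the knockout-labelled library and 8.45 CPM in the control (2.29, 1.91 to 2.76). Both dropped under the rule with each other scaling, where 1 member was at least 2-fold lower, ZNF143 (18.96 CPM in the knockout-labelled library, 38.3 CPM in the control). MAF1, the repressor of Pol III, had 118 CPM in the knockout-labelled library and 125 CPM in the control.

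Of 27 measured general initiation factors of Pol II, 0 passed in either direction, and the median log2 ratio was 0.09. The most abundant, GTF2F1 of TFIIF and TAF7 of TFIID, had 234 and 153 CPM in the knockout-labelled library, against 220.0 and 222 CPM in the control. Of 30 measured pausing and elongation factors of Pol II, 2 were at least 2-fold higher and 0 lower, with a median of 0.39. The share higher, 6.67%, is near the 6.78% of all compared genes. The genes past the rule were MEPCE, which caps the RNA that holds the elongation kinase inactive (49.4 CPM in the knockout-labelled library, 20.5 CPM in the control), and SETD2, a histone methyltransferase that travels with Pol II (115 CPM in the knockout-labelled library, 52.3 CPM in the control). SETD2 dropped under the rule with the upper quartile and the median of gene ratios.

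Of 15 measured assembly and import factors, which build the polymerases in the cytoplasm, 2 were at least 2-fold higher (13.3%, against 6.78% of all compared genes) and 0 lower (against 5.69%), with a median log2 ratio of 0.50. The chaperone HSP90AA1 had 2534 CPM in the knockout-labelled library and 687 CPM in the control (3.69, 3.62 to 3.76). RUVBL1, an ATPase of the chaperone complex for polymerase assembly, had 150.2 CPM in the knockout-labelled library and 69.5 CPM in the control (2.16, 2.03 to 2.31), and dropped under the rule with each other scaling.

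**Figure D4:**
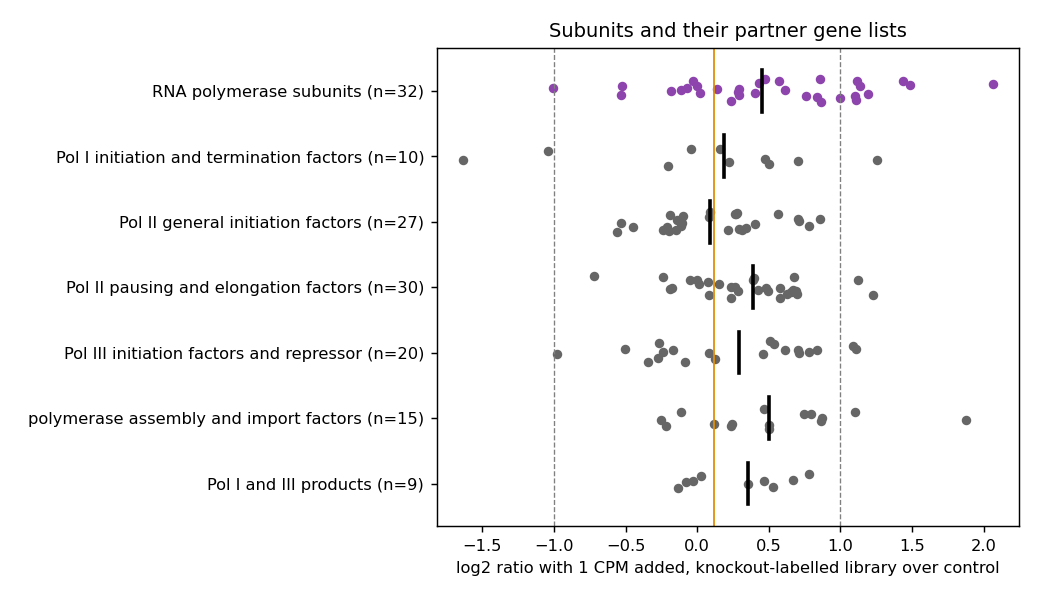
Log2 ratio with 1 CPM added, knockout-labelled library over control, for each measured gene of the subunit list and of 6 partner lists. Points are genes (spread vertically for display), black bars are list medians, dashed lines mark 2-fold and the orange line is the median of all compared genes. The subunits and the assembly factors have the medians farthest to the right (0.45 and 0.50), and the general initiation factors of Pol II the one farthest to the left (0.09).

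The RNAs that Pol I and Pol III make were set beside the subunits. Of 17 listed products 9 were measured, and 0 passed in either direction. Among all compared genes 6.78% were higher and 5.69% lower, and 0 of 9 is near these shares. The median log2 ratio of the 9 products was 0.35, with 6 above 0 and 3 below. The ribosomal RNA rows RNA28S5 and RNA18S5 had 21925 and 9386 CPM in the knockout-labelled library, against 22375 and 10281 CPM in the control. The Pol I precursor row RNA45S5 had a ratio of 0.946 (0.917 to 0.976) and RNA5-8S5, the remaining ribosomal RNA that Pol I makes, 1.72 (1.63 to 1.83). Among the Pol III products, RPPH1, the RNA of the ribonuclease that trims transfer RNA precursors, had a ratio of 1.72 (1.31 to 2.26), and RMRP, the RNA of a related ribonuclease, 1.51 (1.21 to 1.87). RN7SL1 and RN7SL2, RNAs of the signal recognition particle, had ratios of 1.28 (1.20 to 1.36) and 1.39 (1.28 to 1.51). RN7SK, which holds the elongation kinase inactive, had a ratio of 1.02 (0.749 to 1.39). How much of these RNAs enters a library depends on how it was enriched or depleted, which the labels do not state, so their levels do not measure the activity of either enzyme.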

How the data were processed

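RNA was sequenced in 1 library of DLD1 cells labelled HERV-R knockout and 1 control library. The authors deposited raw counts per gene symbol. Alignment with TopHat to GRCh38 is named in the submitters' processing notes. For the counting program, its use of strand and the annotation, nothing is stated in the labels or headers (not given in the sources used here). Rows of a symbol were summed (2687 of 52402 symbols stand on several rows) and scaled to CPM by column total, 16406308 counts in the knockout-labelled library and 21881122 in the control. Members with a mean of at least 1 CPM were compared by log2 ratio with 1 CPM added and a 2-fold rule. Ratios in the text have no pseudocount, and their exact intervals cover counting error only, without duplicates or differences between cultures. Zero counts were taken to allow up to 3 counts. With 1 library per group no test was made. Every member is named except 1 that is not reported here but stays in the counts and medians; of each partner list, the members past the rule, or else the 2 most abundant, are named, with ZNRD1, ZNF143, MAF1, PRIM1 and all measured products added after their values were seen. Members and lists were chosen with earlier results of these data known. Alternatives were scaling with edgeR 4.0.16 (TMM, upper quartile) and DESeq2 1.42.0 (median of ratios), other pseudocounts, filters and size rules. The procedure was tested on simulated data. Positions and lengths are from GENCODE 29, promoter sequences from RefSeq (GRCh38.p14).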

Additional observations from a re-analysis of the deposited data

How the results depend on the processing

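No paired analysis was possible because there is 1 library per group, and for the same reason no library could be left out. The 8 members at least 2-fold higher became 5 with TMM, 4 with the upper quartile and 4 with the median of gene ratios, 5 with a pseudocount of 5, 14 with a 1.5-fold rule and 1 with a 3-fold rule, by the construction of these settings. The 1 lower member became 0 with a pseudocount of 5, a minimum mean of 5 CPM or the 3-fold rule. The median log2 ratio of all measured members was 0.30 with the median of gene ratios and 0.26 with no filter on low values. For the members proper to Pol I it was 1.09 with the upper quartile, 1.07 with the median of gene ratios, 0.94 with a pseudocount of 5 and 1.01 with TWISTNB, an alternative chosen after seeing the data. For those proper to Pol II it was 0.38, 0.36 and 0.35 with TMM, the upper quartile and the median of gene ratios, and for POLR1C with POLR1D 0.025, 0.0047 and -0.012 under the same settings. For the subunits common to all enzymes it was 0.70 and 0.68 with the upper quartile and the median of gene ratios. The compared genes as a whole shifted too, from a median of 0.12 in the main setting to 0.0044 with TMM. Their median was -0.015 with the upper quartile and -0.030 with the median of gene ratios. With a pseudocount of 5 it was 0.090, and with no filter on low values 0. The medians of the members are to be read beside these values. The members' direction is most sensitive near 0, where POLR2C, POLR2M and POLR3E changed sign with at least 1 scaling. Over all compared genes, the 857 higher and 719 lower became 426 and 371 with a pseudocount of 5, 2567 and 1674 with the 1.5-fold rule and 118 and 229 with the 3-fold rule. In the partner lists the 1.5-fold rule gave 9 of 30 Pol II elongation factors higher and 1 lower, and 7 of 20 Pol III factors higher and 1 lower. It gave 6 of 15 assembly factors and 4 of 27 general initiation factors higher, with 0 lower in each. Of 10 Pol I factors 2 were higher and 2 lower, and of 9 products 2 were higher and 0 lower. These counts stand beside 2567 higher and 1674 lower of the 12644 compared genes. Low counts limit POLR2J2, POLR2J3, POLR2J4, POLR3E and CD3EAP most.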

Other observations

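Outside the nuclear polymerases, the mitochondrial RNA polymerase POLRMT had 124 CPM in the knockout-labelled library and 123.1 CPM in the control, a ratio of 1.01 (0.949 to 1.07). The DNA primase subunits, which make the RNA primers of replication, had 41.4 CPM (PRIM1) and 38.9 CPM (PRIM2) in the knockout-labelled library, against 29.1 and 34.1 CPM in the control, with ratios of 1.42 (1.27 to 1.59) and 1.14 (1.02 to 1.27). None of these 3 genes passed the 2-fold rule, which is near the 6.78% higher and 5.69% lower of all compared genes. The log2 ratio of POLRMT (0.01) lies within the shift that the other scalings make.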
